A study of Mus musculus with 8 samples.

Results

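The Rab GTPases are small GTP-binding proteins that give each membrane compartment of the cell its identity. An exchange factor (GEF) loads a Rab with GTP, the active Rab recruits effectors that move, tether or fuse vesicles, and a GTPase-activating protein (GAP) switches it off, after which a GDP dissociation inhibitor carries it back through the cytosol. In myeloid cells they are known for phagosome maturation, for lysosome-related organelles and for the docking and release of granules. A gene was counted as a Rab gene where its symbol in the platform annotation was Rab followed by a number, with at most 1 letter and 1 further digit. Where a gene had several probe sets, the one with the highest mean over the 8 arrays stood for it. The rule found 59 Rab genes among 18194 genes with a symbol of their own, measured by 132 of 45101 probe sets.

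Total RNA of spleen cells from leukemic mice was hybridised to Affymetrix mouse expression arrays, 4 per genotype. Full-length mice carried CBFb-SMMHC, the leukemia fusion of the RUNX1 partner CBFb with part of a smooth muscle myosin, and were sampled 2 months after they received ENU, a chemical mutagen. Truncated mice carried CBFb-SMMHCd179-221, a form named for the residues it lacks, and were sampled 3 weeks after birth, with no mutagen named for them. The labels give 2 animals per genotype, with 1 array of animal 1 and 3 arrays of animal 2, and do not say whether arrays of an animal were separate extractions. Both genotypes are chimeras by the sample labels, so that host cells without the fusion would remain, but the series text has the full-length animals as knock-in. Genotype, mutagen and age therefore cannot be told apart, and how many cells carried a fusion was not measured. All animals were leukemic, and no healthy spleen was among the arrays.

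The arrays did not group by animal. Array 1 of full-length animal 2 correlated over all probe sets more closely with the array of animal 1 (Pearson r = 0.989) than with arrays 2 and 3 of its own animal (r = 0.954 for both). Those arrays 2 and 3 correlated with each other at r = 0.997. Truncated arrays showed the same order, with 0.987 between the arrays numbered 1, 0.976 between array 1 of animal 2 and its arrays 2 and 3, and 0.997 between the latter. The animal numbers in the labels may thus be wrong for some arrays, and every mean, SD and p by animal given here rests on them. Values are therefore also given for the arrays numbered 1 (animals 1 and 2) and for arrays 2 and 3 of animal 2 apart. Marker genes of several cell types also differed between arrays. The median of 12 erythroid genes was 11.21 and 11.43 log2 units on the full-length arrays numbered 1, 8.21 to 8.22 on full-length arrays 2 and 3, and 8.35 to 9.76 on the truncated arrays. Medians of 15 monocyte and macrophage genes lay at 6.54 to 7.35 on full-length and 8.38 to 8.64 on truncated arrays, and 12 of the 15 genes did not overlap between genotypes. All 11 secondary granule genes were higher on every truncated array, with medians of 6.58 to 8.94 and 11.03 to 11.56. The pan-leukocyte gene Ptprc lay at 8.35 to 9.58 on full-length and 10.30 to 10.77 on truncated arrays. In a bulk sample, fewer cells of a type and less RNA per cell cannot be told apart.

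Promoters of Rab32, Rab31, Rab27a and Rab29, the genes with the smallest p among those with an entry, are shown first, because the fusion binds RUNX1. RefSeq windows of 300 bases (250 before and 50 after a start, build GRCm38.p6) were held for 48 of the 59 Rab genes, as 60 windows. The 4 windows below belong to Rab32, chr10:10558158-10558457 on the minus strand, Rab31, chr17:65772703-65773002 on the minus strand, Rab27a, chr9:73044560-73044859 on the plus strand, and Rab29, chr1:131867027-131867326 on the plus strand. Each is written 5′ to 3′ on the strand of the gene. Capitals mark a PU.1 element in Rab32 and a RUNX core, on the opposite strand in Rab31, in the other genes. The Rab32 window also holds a GATA core (TGATAA on the opposite strand, at position -200 from the start), left in lower case.
Rab32: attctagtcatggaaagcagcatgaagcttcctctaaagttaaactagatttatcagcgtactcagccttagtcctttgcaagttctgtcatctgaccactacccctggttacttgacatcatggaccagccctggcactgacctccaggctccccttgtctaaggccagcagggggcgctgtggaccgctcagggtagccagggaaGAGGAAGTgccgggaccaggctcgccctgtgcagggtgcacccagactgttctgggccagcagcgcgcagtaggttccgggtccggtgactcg
Rab31: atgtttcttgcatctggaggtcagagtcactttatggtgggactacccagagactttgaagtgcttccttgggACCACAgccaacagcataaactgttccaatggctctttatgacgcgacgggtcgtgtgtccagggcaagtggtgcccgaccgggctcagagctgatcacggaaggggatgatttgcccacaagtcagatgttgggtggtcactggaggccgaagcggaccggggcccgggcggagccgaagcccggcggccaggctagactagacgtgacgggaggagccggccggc
Rab27a: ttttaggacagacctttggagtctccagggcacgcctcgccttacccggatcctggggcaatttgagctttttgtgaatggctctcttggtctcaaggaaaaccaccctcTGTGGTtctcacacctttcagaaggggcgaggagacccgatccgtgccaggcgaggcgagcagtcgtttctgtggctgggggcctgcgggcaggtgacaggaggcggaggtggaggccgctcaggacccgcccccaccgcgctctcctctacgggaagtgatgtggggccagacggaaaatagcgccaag
Rab29: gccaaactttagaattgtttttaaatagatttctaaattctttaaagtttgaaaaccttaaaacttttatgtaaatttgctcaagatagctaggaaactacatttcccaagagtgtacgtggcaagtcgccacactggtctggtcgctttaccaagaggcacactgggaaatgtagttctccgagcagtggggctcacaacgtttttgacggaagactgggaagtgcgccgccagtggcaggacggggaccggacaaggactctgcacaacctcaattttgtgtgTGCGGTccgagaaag
The RUNX core (TGTGGT or TGCGGT, either strand) stood in 16 of 60 Rab windows (26.7%) and in 22.4% of all 32851 windows. A PU.1 element (GAGGAAGT) stood in 3.33% of Rab windows and 3.2% of all. A GATA core (AGATAA or TGATAA) stood in 10% and 18.6%. The E box CACGTG was in 10% and 7.15%, the MITF box (TCATGTG or TCACGTG, the latter overlapping the E box) in 11.7% and 7.4%, and the C/EBP element (TTGCGCAA, TTGCGTAA or TTGCATAA) in 1.67% and 1.09%. A match shows only that these letters are present. A second window of Rab27a held an E box.

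Of the 59 Rab genes, 47 were tested. The other 12 (Rab17, Rab20, Rab26, Rab30, Rab33a, Rab34, Rab39, Rab39b, Rab3c, Rab40b, Rab42 and Rab9b) were dim, with fewer than 2 of the 4 animals above the median of all values, 4.75. Rab6b and Rab2b, at means of 4.95 and 4.99, were the dimmest that entered, and Rab26 and Rab34, at 4.6 and 4.57, the brightest that did not. In limma on animal means, 0 of 11418 genes (0%) and 0 of 47 Rab genes reached a Benjamini-Hochberg adjusted p under 0.05. At an unadjusted p under 0.05, 6 Rab genes had higher values in truncated spleens (12.8%, against 8.82% of all genes tested) and 1 had lower values (2.13%, against 5.28%). In 7 of the Rab genes tested every truncated array lay above every full-length array (14.9%, against 10.3% of all genes tested). These were Rab32, Rab31, Rab27a, Rab29, Rab3d, Rab13 and Rab7. Rab18 and Rab35 lay the other way (4.26%, against 8.73%). Over all 59 members without the filter, the shares were 11.9% upward, against 7.94% of all genes, and 3.39% downward, against 5.89%. A single gene is 2.13% of the 47, so each share rests on few genes. These shares are not read as a result about the family, and whether it differs from all genes was not tested. The median difference, truncated minus full-length, was 0.13 over the 47 Rab genes, with 29 higher and 18 lower. Over all genes tested it was -0.01, with 5535 higher and 5883 lower. The counts of positive genes by role below stand beside this split. Differences exceeded 1 log2 unit in 7 Rab genes (14.9%, against 10.2% of all genes tested) and were below 0.5 in 35 (74.5%, against 73.7%).

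**Figure D1:**
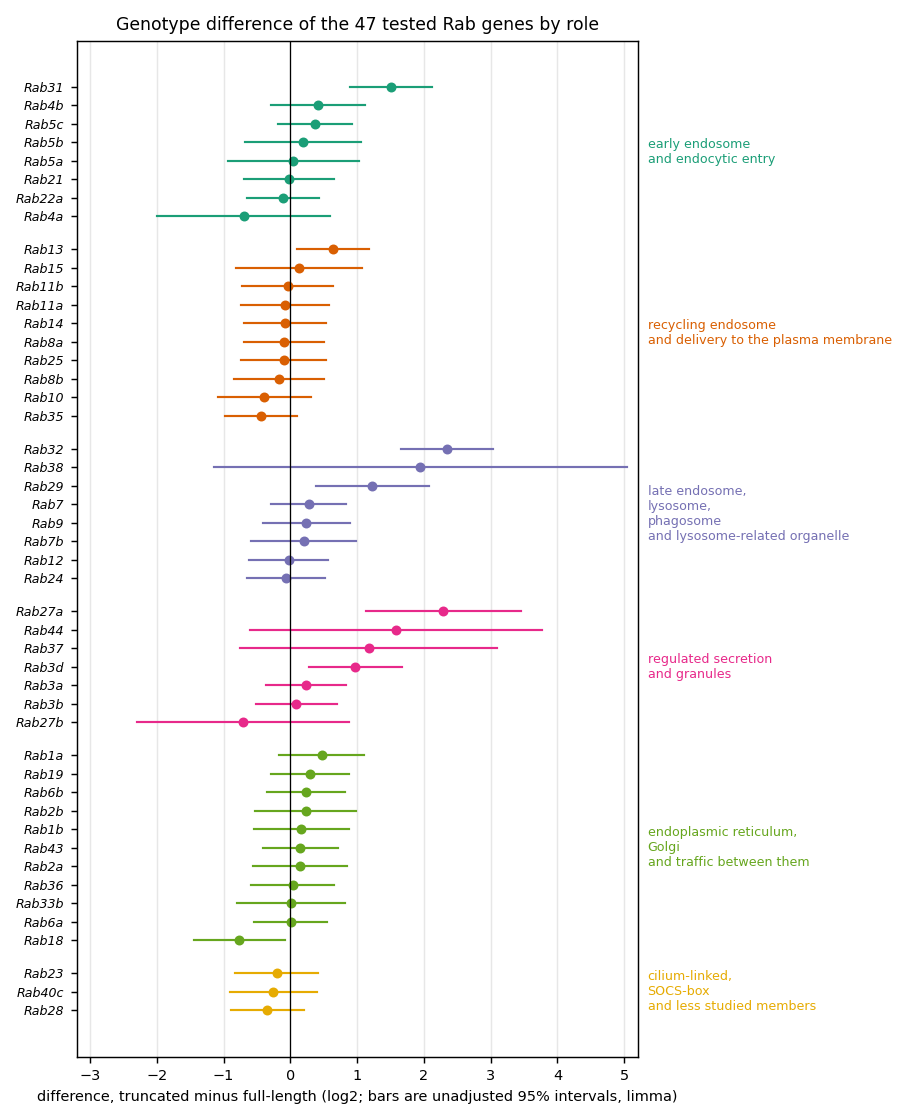
Genotype difference of each of the 47 tested Rab genes, by role, in log2 units (points, truncated minus full-length; bars, unadjusted 95% intervals from limma on 2 animals per genotype). Rab32, Rab27a and Rab31 lie highest among the genes whose bars do not reach 0, while Rab38, with the widest bar, spans -1.14 to 5.04.

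The arrays carry array number as well as animal, and a limma fit on all 8 arrays with a replicate block (animal and array number, which the arrays shared across genotypes) was run beside the test on animal means. It called 942 of 11418 genes (8.25%) and 6 Rab genes (12.8%): Rab32, Rab27a, Rab29 and Rab3d with higher values, and Rab18 and Rab35 with lower values, in truncated spleens. It treats the 3 arrays of an animal as separate samples, and it pairs same-numbered arrays by the labels alone. The fit with animal as a random block, also on 8 arrays, called 344 of 11418 genes and 0 of 47 Rab genes. With so few of all genes called, this does not set the Rab genes apart. Those 6 calls were lost in it, with limma adjusted p between 0.051 (Rab3d) and 0.194 (Rab18). A fit with 1 array per animal, the arrays numbered 1, called 26.4% of all genes and 11 Rab genes (23.4%), namely Rab18, Rab1a, Rab27a, Rab29, Rab31, Rab32, Rab37, Rab38, Rab3d, Rab44 and Rab4b. The values of the replicate block fit are given below beside the genes whose call it changed.

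Among the Rabs of late endosomes, lysosomes and lysosome-related organelles, 6 of the 8 tested had a positive difference, and the median was 0.26 (range -0.06 to 2.35). It was 0.28 in the arrays numbered 1 and 0.35 in arrays 2 and 3, with 6 positive in each. Rab32 takes cargo to lysosome-related organelles such as melanosomes and restricts microbes in macrophage vacuoles. Its log2 expression was 5.84 in full-length animal 1 and 5.52, 6.76 and 6.90 on the arrays of full-length animal 2, against 8.51 in truncated animal 1 and 9.03, 8.09 and 8.11 on those of truncated animal 2. Every truncated array lay above every full-length array. Means were 6.11 ± 0.39 and 8.46 ± 0.07 (SD, n = 2 animals), a difference of 2.35 (95% interval 1.65 to 3.04), or 5.08-fold (limma adjusted p = 0.0819). With the replicate block it was 2.18 (limma adjusted p = 0.0459). Within the arrays numbered 1 the difference was 3.09 and within arrays 2 and 3 it was 1.27. Rab29, which sits on the trans-Golgi network and lysosomes and recruits the kinase Lrrk2, lay at 6.76, then 6.38, 5.75 and 5.77 in full-length animals, and at 7.72, then 7.38, 7.52 and 7.49 in truncated animals. The full-length arrays spread over a log2 unit and still did not reach the truncated ones. The difference was 1.23 (0.38 to 2.07; 2.34-fold; limma adjusted p = 0.208), and 1.36 with the replicate block (limma adjusted p = 0.0219). Rab7, the central Rab of late endosome to lysosome traffic, had 9.28, 9.10, 9.29 and 9.31 on full-length and 9.64, 9.42, 9.40 and 9.45 on truncated arrays. The groups did not overlap, yet the difference was 0.28 (limma adjusted p = 0.681), and 0.05 at its other probe set. Rab9, which returns mannose 6-phosphate receptors to the Golgi, had a difference of 0.24, Rab7b 0.20, Rab12 -0.03 and the autophagy-linked Rab24 -0.06. Rab38, the closest relative of Rab32, is described with the array differences. Rab34 and Rab9b were not tested.

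Regulated secretion and granule Rabs had a median of 0.98 (range -0.71 to 2.29), with 6 of 7 tested positive. That rests on the arrays numbered 1, where the median was 1.05 with 6 positive, since in arrays 2 and 3 it was -0.10 with 3 positive. Rab37, Rab44 and Rab3b (-0.10), of the 6 positive genes, had the opposite direction there. Rab37 and Rab44 are described with the array differences. Rab27a docks secretory lysosomes and azurophil granules at the plasma membrane. Full-length arrays gave 5.36, 5.26, 7.22 and 7.23, and truncated arrays 8.0, 8.27, 8.65 and 8.64. The 2 higher full-length values stayed below the lowest truncated one. Means were 5.97 ± 0.86 and 8.26 ± 0.37 (SD, n = 2 animals), a difference of 2.29 (1.13 to 3.46) or 4.9-fold (limma adjusted p = 0.124). With the replicate block it was 2.12 (limma adjusted p = 0.0272). The difference was 2.82 in the arrays numbered 1 and 1.42 in arrays 2 and 3, and 3 dimmer probe sets gave 0.83, 0.29 and 1.29 with overlap. Rab3d, a Rab of exocrine and mast cell secretory granules, gave 6.01, 6.44, 6.71 and 6.62, against 7.27, 7.26, 7.20 and 7.35. The truncated arrays lay close together and above all full-length ones. The difference was 0.98 (0.27 to 1.68; limma adjusted p = 0.223), 0.83 with the replicate block (limma adjusted p = 0.0394), and 1.74, 1.42 and 0.23 at the other probe sets. Its synaptic relatives Rab3a and Rab3b had differences of 0.23 and 0.09, and Rab26 and Rab3c were not tested. Rab27b, relative of Rab27a, had a difference of -0.71, and the difference between these relatives was not tested.

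Early endosome Rabs had a median of 0.12 (-0.70 to 1.51), with 5 of 8 tested positive. The median was 0.34 in the arrays numbered 1 and 0.03 in arrays 2 and 3. Rab31, a relative of Rab5 and Rab22a that moves cargo between the trans-Golgi network and endosomes, gave 6.13, 5.54, 6.97 and 6.90 in full-length and 7.89, 7.91, 7.68 and 7.60 in truncated animals. The lowest truncated value exceeded the highest full-length value. Means were 6.30 ± 0.24 and 7.81 ± 0.11 (SD, n = 2 animals), a difference of 1.51 (0.90 to 2.12) or 2.84-fold (limma adjusted p = 0.0859; with the replicate block 1.38, adjusted p = 0.0693). It was 2.06 in the arrays numbered 1 and 0.70 in arrays 2 and 3, and 1.19 with overlap at the other probe set. Rab22a, its closest relative, had -0.12. The 3 Rab5 genes, which drive homotypic fusion of early endosomes, had differences of 0.05 (Rab5a), 0.18 (Rab5b) and 0.36 (Rab5c). Rab21, which traffics integrins, had -0.02. Rab4b, an early endosome Rab related to Rab4a, gave 8.0, 7.45, 7.71 and 7.88, against 8.50, 8.31, 7.89 and 7.83, and its difference was 0.42 (-0.29 to 1.12; limma adjusted p = 0.611) with overlap. With 1 array per animal it was 0.68 (limma adjusted p = 0.0327). Rab17 was not tested. Rab20, linked to phagosome maturation in macrophages, was too dim for the main test, with 2.77 to 3.60 on full-length and 3.54 to 5.01 on truncated arrays.

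**Figure D2:**
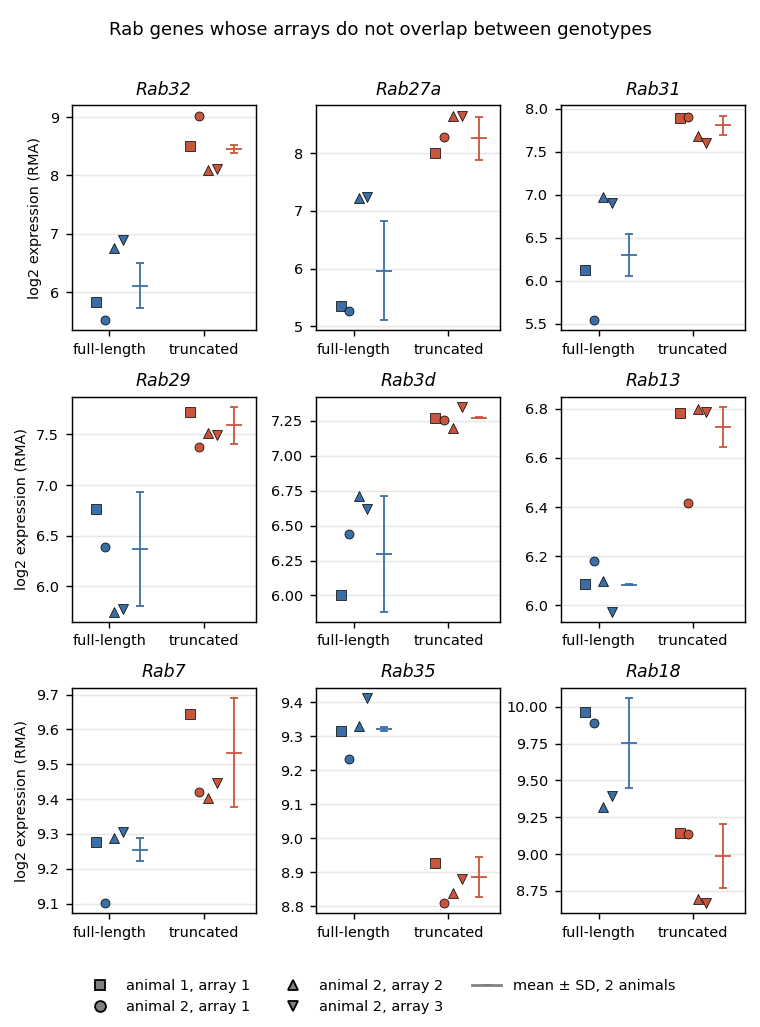
Log2 expression (RMA) on each array for the 9 Rab genes whose arrays do not overlap between genotypes; marker shapes give the animal and array, and bars the mean ± SD over 2 animals. Each panel has its own axis, and panels show differences within a gene only. The truncated arrays of Rab32 sit between 8.09 and 9.03, all above the full-length arrays at 5.52 to 6.90.

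All 10 recycling and plasma membrane Rabs were tested. Their median was -0.09 (-0.43 to 0.64), and 8 of 10 were negative. In each array set 4 of the 10 were positive, with medians of -0.08 and -0.11. Rab13, which takes cargo to the cell surface and cell junctions, gave 6.08, 6.18, 6.10 and 5.97, against 6.78, 6.42, 6.80 and 6.79. Its difference was 0.64 (0.10 to 1.18; limma adjusted p = 0.279; with the replicate block adjusted p = 0.0566). Rab35, which acts in fast recycling, gave 9.32, 9.23, 9.33 and 9.41, against 8.93, 8.81, 8.84 and 8.88. Both groups were tight and apart, and the difference was -0.43 (-0.97 to 0.10; limma adjusted p = 0.458), or -0.46 with the replicate block (limma adjusted p = 0.0490). Rab11a, Rab11b and Rab25, of the recycling endosome, and Rab14, Rab8a and Rab8b had differences between -0.17 and -0.04. Rab15 had 0.13 and Rab10, which moves GLUT4 vesicles and basolateral cargo, -0.39.

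Of the 11 tested Rabs of the endoplasmic reticulum and Golgi, 10 were positive, but the median was 0.15 (-0.76 to 0.47). In the arrays numbered 1 only 5 of the 11 were positive (median -0.04), and in arrays 2 and 3 there were 7 (median 0.10). Rab18, which links the endoplasmic reticulum to lipid droplets, was the negative one. It gave 9.97, 9.89, 9.32 and 9.39 in full-length animals and 9.14, 9.13, 8.70 and 8.67 in truncated animals, with no overlap. Means were 9.75 ± 0.31 and 8.99 ± 0.22 (SD, n = 2 animals), a difference of -0.76 (-1.44 to -0.09; limma adjusted p = 0.300), and -0.73 with the replicate block (limma adjusted p = 0.0184). Its other probe set gave -0.97, also without overlap. Rab1a, which tethers vesicles between the endoplasmic reticulum and the Golgi, gave 10.03, 9.80, 10.76 and 10.84, against 10.70, 10.92, 10.67 and 10.64. The low full-length values were those of the arrays numbered 1, and the difference was 0.47 (limma adjusted p = 0.504) with overlap. With 1 array per animal it was 0.89 (limma adjusted p = 0.00342). Rab19 had 0.29, and Rab1b, Rab2a, Rab2b, Rab6a, Rab6b, Rab33b, Rab36 and Rab43 lay between 0.00 and 0.23. At its other probe sets Rab43 gave -0.15 and -0.43. Other probe sets of Rab2a, Rab2b, Rab6a, Rab6b and Rab36 gave values of either sign. The count of positive genes thus depends on the probe set used. Rab30, Rab33a, Rab39 and Rab39b were not tested. Of the remaining Rabs, Rab28, which is linked to the cilium, gave 8.45, 8.34, 8.25 and 8.37, against 8.11, 8.45, 7.67 and 7.80. Its difference was -0.34 (-0.90 to 0.21; limma adjusted p = 0.591) with overlap. Rab40c, which has a SOCS box, gave 7.47, 6.99, 7.12 and 7.23, against 7.19, 6.98, 6.80 and 6.87. Its difference was -0.26 (limma adjusted p = 0.757) with overlap, and -0.44 without overlap at its other, dimmer probe set. Rab23, a Rab of hedgehog signalling, had -0.20, and Rab40b and Rab42 were not tested.

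Some Rab genes differed more between arrays of a genotype than between genotypes. Full-length arrays spanned over 1 log2 unit in 10 of the 47 Rab genes tested (21.3%, against 22.1% of all genes tested) and truncated arrays in 8 (17%, against 10.6%). Rab38, which takes enzymes to melanosomes and other lysosome-related organelles, gave 4.07 and 3.96 on the full-length arrays numbered 1 but 9.98 and 9.90 on full-length arrays 2 and 3. Its truncated arrays gave 8.09, 8.59, 7.48 and 7.38. The full-length arrays numbered 1 lay below the 4.75 used as the limit for dim values. Arrays 2 and 3 of full-length animal 2 lay 5.92 log2 units above them. Since dim values are compressed, that difference and the next are no exact folds. The genotype difference was 4.33 in the arrays numbered 1 and -2.50 (5.66-fold lower) in arrays 2 and 3, so the pooled value of 1.95 (-1.14 to 5.04; limma adjusted p = 0.583) averages opposite directions. These values are those of 1 probe set. The other probe set of Rab38 had a narrower range over all arrays, 5.125 to 8.418, and a pooled difference of 0.92. Its differences in the array sets were not examined. Rab44, a large Rab of mast cells and granulocytes, gave 5.18 and 5.18, then 9.13 and 9.13, against 7.77, 8.10, 8.55 and 8.53. Its genotype difference was 2.75 in the arrays numbered 1 and -0.59 in arrays 2 and 3 (pooled 1.58; limma adjusted p = 0.514). Rab37, a mast cell granule Rab, gave 4.58, 4.56, 7.86 and 7.91, against 6.43, 6.34, 7.71 and 7.77. Its difference was 1.81 and -0.15 in these sets (pooled 1.17; limma adjusted p = 0.598).

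**Figure D3:**
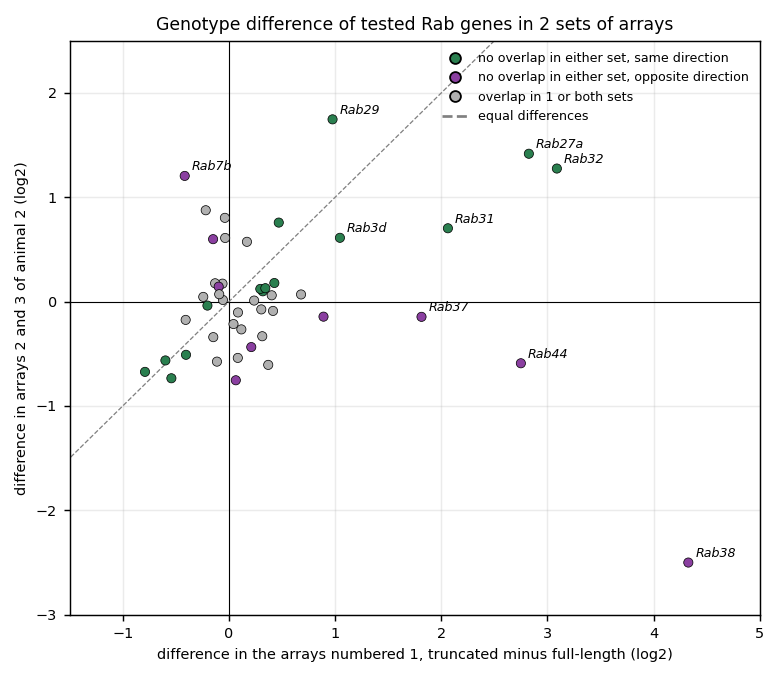
Genotype difference (log2, truncated minus full-length) of the 47 tested Rab genes in the arrays numbered 1 (horizontal axis) and in arrays 2 and 3 of animal 2 (vertical axis). Green points keep direction without overlap in both sets, purple points reverse it, and Rab38 stands apart at 4.33 and -2.50.

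Rab27b, which docks granules in platelets and other secretory cells, and Rab4a, which acts in fast recycling from early endosomes, were higher on arrays 2 and 3 in both genotypes. Rab27b gave 7.99, 7.63, 9.92 and 10 on full-length and 7.14, 7.39, 9.24 and 9.21 on truncated arrays. The step from the arrays numbered 1 to arrays 2 and 3 was 2.15 and 1.96, larger than the genotype difference of -0.71 (-0.73, -0.76 and 0.35 at its other probe sets). Without truncated animal 1 that difference was 0.03. Rab4a gave 8.45, 8.17, 9.77 and 9.84, against 7.52, 7.90, 9.22 and 9.25, with steps of 1.49 and 1.53 and a genotype difference of -0.70 (-0.88 at its other probe set). With the full-length arrays numbered 1 left out, the differences were -2.08 for Rab27b and -1.65 for Rab4a. Within each set the genotype difference of both genes was negative, -0.54 and -0.74 for Rab27b and -0.60 and -0.56 for Rab4a. In all, 15 Rab genes kept direction without overlap in both sets (31.9%, against 29.6% of all genes tested) and 9 reversed it (19.1%, against 18.1%). Rab7b, Rab15 and Rab19 stood higher only on truncated arrays 2 and 3, at 6.33 and 6.45, 6.85 and 6.96, and 6.31 and 6.41, while their other arrays lay at 4.57 to 5.27, 5.59 to 6.07 and 5.28 to 5.72. The median of 9 B cell genes, 4 of them bright enough to be tested, was higher there (5.83 and 6.0) than on the other arrays (4.40 to 4.73), while Pax5, Fcer2a and Cr2 of that list stayed between 3.26 and 4.66 on all arrays. The median of 8 dendritic cell genes was highest there too (5.37 and 5.49, against 4.55 to 4.93), with Itgax at 6.65 and 6.55 and at most 4.83 elsewhere. The part of either cell type in these values was not tested. Rab7b, Rab15 and Rab19 were singled out after their values were seen. The genes that reversed direction were Rab12, Rab1a, Rab23, Rab37, Rab38, Rab43, Rab44, Rab6a and Rab7b.

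**Figure D4:**
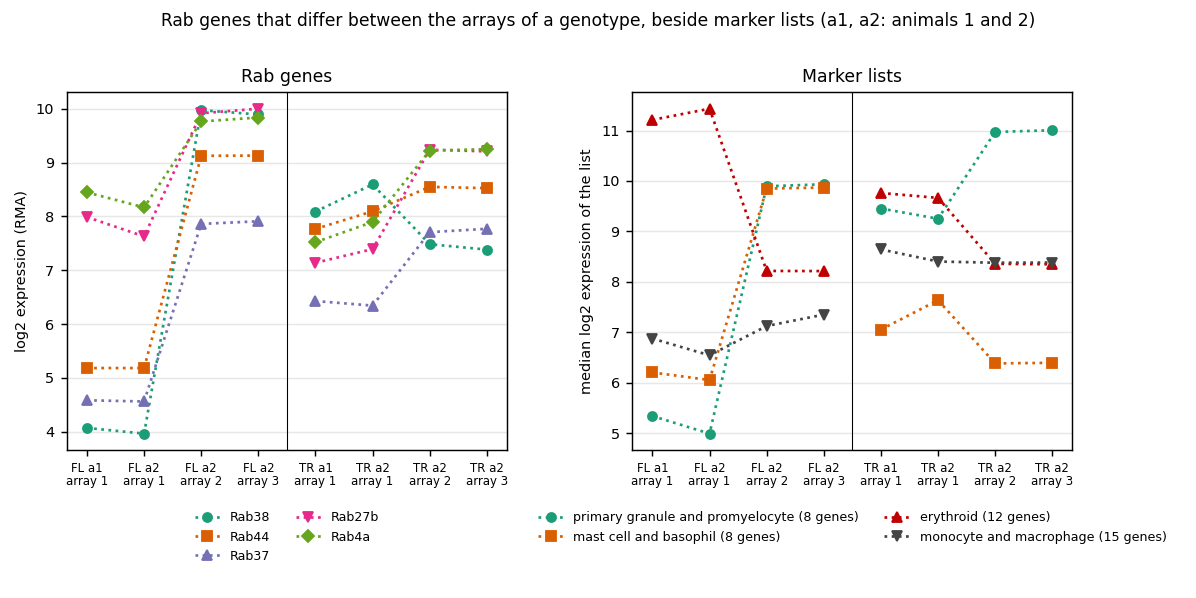
Left, log2 expression of 5 Rab genes on each array; right, the median of 4 marker lists on the same arrays (FL, full-length; TR, truncated; a1 and a2, animals 1 and 2). Rab38 and the mast cell and basophil list are both highest on full-length arrays 2 and 3, where the erythroid list lies at 8.21 to 8.22, below 11.21 and 11.43 on the arrays numbered 1.

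Marker lists also differed between the array sets, not all in the same way as these Rab genes. The median of 8 mast cell and basophil genes (3 higher and 5 lower in truncated spleens) was 6.20 and 6.05 on the full-length arrays numbered 1, and 9.85 and 9.87 on full-length arrays 2 and 3. On truncated arrays it was lower on arrays 2 and 3 (6.38 and 6.39) than on those numbered 1 (7.05 and 7.64), as Rab38 was, whereas Rab44, Rab37, Rab27b and Rab4a were higher there. Within that list Ms4a2 lay at 11.29 to 11.50 on all full-length arrays, and Tpsab1 was lower on full-length arrays 2 and 3 (6.51 and 6.45) than on those numbered 1 (7.20 and 7.48). The median of 8 primary granule genes (7 higher, 1 lower) was 5.34 and 4.99, then 9.90 and 9.93, against 9.45 and 9.25, then 10.97 and 11.01 on truncated arrays. Kit, the stem cell factor receptor of mast cells and progenitors, lay at 7.46, 7.74, 10.36 and 10.35 on full-length and 6.63, 7.62, 9.92 and 9.96 on truncated arrays. The part of these cells, or of the erythroid and monocyte genes above, in the Rab values was not tested. With the full-length arrays numbered 1 left out, so that animal 2 alone stood for its genotype, the differences were 1.63 for Rab32, 1.03 for Rab27a, 0.87 for Rab31, 1.83 for Rab29, 0.61 for Rab3d and -0.37 for Rab18. They were 0.69 for Rab13 and -0.48 for Rab35. All 8 kept their direction, while Rab38 (-1.98), Rab44 (-1.05) and Rab37 (-1.04) took the opposite one. Rab32, Rab27a and Rab31 passed limma's adjusted threshold without array 2 and without array 3 of full-length animal 2. In those settings 338 and 426 of all 11418 genes passed as well, so this is not particular to these Rab genes. The 3 did not pass when any other array of animal 2 was left out.

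The Rab machinery was read from lists of 150 symbols, of which 139 were on the array and 124 tested. In limma, 0 of the 124 reached the adjusted threshold. At an unadjusted p under 0.05, 9 had higher (7.26%, against 8.82% of all genes tested) and 7 had lower values (5.65%, against 5.28%) in truncated spleens, and the median difference was -0.02. These shares lie near those of all genes and set the machinery apart in neither direction. Prenylation, escort and GDI genes (7 tested, 0 at that p) had a median of -0.24, with -1.16 for the escort gene Chml and -0.65 for Rabggtb, a subunit of the enzyme that attaches the lipid anchor. Both came from the arrays numbered 1 (-1.47 and -0.96) and lay at 0.21 and 0.10 in arrays 2 and 3, and the other probe set of Chml gave -0.03. Chm, the other escort gene, had 0.75 (0.23 and 2.05 in the array sets) and Rabac1 -0.43. Exchange factors (35 tested, 2 higher and 2 lower) had a median of 0.02. Als2cl had 0.99 (2.13 at its other probe set) and Dennd4a -0.58 (-1.14 at its other probe set), each with its direction kept in both array sets. Als2cl, with a full-length mean of 4.45, entered the test only through the truncated animals. Dennd1c had 1.15 (0.59 at its other probe set) and Dennd2c -0.91, but in arrays 2 and 3 they lay at -0.08 and -0.09. GTPase-activating proteins (29 tested, 2 higher and 2 lower) also had a median of 0.02, with 1.01 for Tbc1d2, which acts on Rab7, 0.71 for Tbc1d8 (0.31 at its other probe set), -0.67 for Sgsm2, a GAP for Rab32 and Rab38, and -1.12 for Tbc1d24. These 4 kept their direction in both array sets, with Tbc1d2 at 1.33 and 0.36.

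Of 53 tested effectors, at an unadjusted p under 0.05 in limma, 5 had higher (9.43%, against 8.82% of all genes tested) and 3 lower values (5.66%, against 5.28%), and their median was -0.02. Lrrk2, the kinase that Rab29 recruits and that phosphorylates several Rabs, gave 4.23, 4.34, 4.68 and 4.38 on full-length and 5.84, 5.58, 6.12 and 5.99 on truncated arrays. All truncated arrays lay above all full-length arrays, with a difference of 1.52 (0.96 to 2.09; limma adjusted p = 0.0821). Plin3, which binds Rab9 and coats lipid droplets, gave 5.29, 5.32, 6.60 and 6.82, against 7.98, 7.87, 7.64 and 7.65, a difference of 2.08 (limma adjusted p = 0.104). Rilpl2, a binder of Rabs phosphorylated by Lrrk2, gave 7.68, 7.27, 8.21 and 8.31, against 9.09, 9.04, 8.98 and 9.07, a difference of 1.26 (limma adjusted p = 0.104). Plin3 had 2.62 in the arrays numbered 1 and 0.93 in arrays 2 and 3, and Rilpl2 1.59 and 0.76. Rabep2, a Rab4 and Rab5 effector, had 0.95 (limma adjusted p = 0.158). For Plin3 and Rilpl2, too, the arrays did not overlap between genotypes. Of the effectors outside the 4 smallest p and named after their values were seen, Rufy1 had 0.97 (limma adjusted p = 0.191). The lower ones were Rab11fip5, an adaptor of Rab11, at -2.15 (limma adjusted p = 0.170), with -2.74 and -0.83 in the array sets, Ocrl, a phosphatase that binds several Rabs, at -0.94, and Rabepk at -0.62.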

How the data were processed

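Spleen RNA of 8 arrays was analysed, 4 per genotype from 2 animals. The deposited table holds log2 values for 45101 probe sets. The submitters' processing notes name RMA, a method that subtracts background, normalizes quantiles and summarises probes, and its version is not given in the sources used here. The log base was read from the values. RMA draws dim values together, so differences of dim genes are understated, and precision is limited by how few arrays there are. The platform annotation gave names: 34958 probe sets had 1 symbol, 932 several and 9211 none, and only the first were used. All 59 Rab gene identifiers were found in the GRCm38.p6 table.

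Arrays of an animal were averaged. Genes with at least 2 of 4 animals above the median of 4.75 were tested with limma 3.58.1 (lmFit, then eBayes) under R 4.3.3 (2 residual and 3.24 prior degrees of freedom), with Benjamini-Hochberg adjustment over 11418 genes and a threshold of 0.05. Whether the animals are separate litters is not given, and p-values measure the spread between these 4 animals as labelled. An exact permutation test (two-sided) of 2 animals against 2 cannot go below 0.333, so none is given. The script was tested on simulated data.

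The labels give both genotypes the same animal and array numbers. Deviations from the genotype means of the 4 same-numbered pairs correlated at 0.145 to 0.301, and those of the 12 other pairs at -0.251 to 0.228. Array 1 of full-length animal 2 correlated more with truncated animal 1 (0.161) than with its same-numbered array (0.145). Arrays 2 and 3 correlated across numbers at 0.219 and 0.228, and within numbers at 0.230 and 0.214. The values part the arrays numbered 1 from arrays 2 and 3 but do not show pairing within a set, which the replicate block takes from the labels. Rab genes were named in full where the unadjusted p was under 0.05, the arrays did not overlap, or the difference was among the 15 largest or the 2 largest of a role, as were the 4 pathway genes of each list with the smallest p. The members, roles and lists were chosen with earlier results of these data known. Cross-matching to related genes is possible for probe sets of the s_at and x_at kinds, used here for Rab4a, Rab14, Rab3a and Rabep2. A total of 20 alternatives were planned, and 1 was added after seeing the data.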

Additional observations from a re-analysis of the deposited data

Results flagged for a closer look

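Rab10 on the array of truncated animal 1 lay at 9.27, against 9.77 to 9.87 on the other truncated arrays, and was the lowest array by a gap close to the whole range. Other Rab genes also had 1 array of a genotype far from the remaining 3, 11 of 118 gene and genotype groups in all (9.32%, against 5.66% over all genes). Chance gives about 1 in 20 only for 4 independent arrays, which these are not. On the array of full-length animal 1, Rab25 lay at 5.07 (others 5.41 to 5.45), Rab33b at 6.35 (5.73 to 5.77) and Rab36 at 4.9 (5.2 to 5.25). On array 1 of full-length animal 2, Rab24 lay at 8.59 (8.24 to 8.26), Rab39b at 4.21 (3.69 to 3.71) and Rab7 at 9.10 (9.28 to 9.31). On the array of truncated animal 1, Rab34 lay at 5.0 (4.37 to 4.39) and Rab40b at 3.24 (3.58 to 3.62). On array 1 of truncated animal 2, Rab13 lay at 6.42 (6.78 to 6.80) and Rab3c at 3.24 (3.79 to 3.88). Rab34, Rab39b, Rab3c and Rab40b were too dim to test.

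In 9 Rab genes every array pointed one way in the arrays numbered 1 and the opposite way in arrays 2 and 3 of animal 2, and the difference between these effects was not tested. Rab38 had the widest contrast, with -2.50 in arrays 2 and 3 after 4.33 in the arrays numbered 1. Rab44 had -0.59 after 2.75, Rab37 -0.15 after 1.81 and Rab1a -0.14 after 0.89. Rab12 had -0.44 after 0.21 and Rab23 -0.75 after 0.06. Another 3 genes ran the other way, Rab7b with 1.2 after -0.42, Rab43 with 0.60 after -0.15 and Rab6a with 0.14 after -0.10.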

How the results depend on the processing

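Under 20 planned and 1 added alternatives, the differences of Rab32, Rab31, Rab27a, Rab29, Rab3d, Rab13, Rab18, Rab35, Rab7, Rab4a, Rab4b, Rab28 and Rab40c kept their direction. Without the full-length arrays numbered 1, which had high erythroid values, and in arrays 2 and 3 of animal 2 alone, the signs of Rab1a (-0.0801 and -0.14), Rab37 (-1.04 and -0.15), Rab38 (-1.98 and -2.50) and Rab44 (-1.05 and -0.59) turned, and the median over the Rab genes was -0.0033 and 0.015. Rab27b lay between -1.45 and 0.0289 with 1 animal or array left out, the positive value being without truncated animal 1, and at -2.08 without the full-length arrays numbered 1, where Rab4a was -1.65. The causes were not tested. Rab calls at an adjusted p under 0.05 in limma were 6 with the replicate block, which changed no other Rab call at that threshold, 11 with 1 array per animal, where the spread between arrays of an animal was not used, and 0 to 5 with 1 animal or array left out. At an unadjusted p, higher Rab calls were 11 with 1 array per animal and 6 to 10 with 1 array of animal 2 left out. Lower calls were 4 with the replicate block, 2 with animal as a random block and 3 with 1 array per animal. They were 2 with no filter on dim genes, and 0 to 1 with 1 array of animal 2 left out. In either direction at that p, limma called 34.6% of all genes tested with 1 array per animal (29.8% of Rab genes). It called 27.2% with the replicate block (23.4%), and 8.56% to 18.6% with 1 array of animal 2 left out (12.8% to 23.4%). With animal as a random block it called 16.2% (17%), and with no filter on dim genes 11.1% (15.3%). The pathway counts below stand beside the same all-gene shares. Without overlap, 19 and 9 Rab genes lay higher and lower with 1 array per animal, and 13 and 14 without the full-length arrays numbered 1. These counts were 19 and 19 in arrays 2 and 3 alone, and 7 to 18 and 2 to 12 with 1 animal or array left out. The share over all genes was not counted for overlap in these settings, so those counts are not read as a result about Rab genes. Pathway genes at an unadjusted p were 16 higher and 16 lower with the replicate block, and 24 and 20 with 1 array per animal. With 1 array of animal 2 left out they were 7 to 13 and 3 to 13. The 12 dim Rab genes were left out of the main fit only. With no filter on dim genes, 0 of 59 Rab genes reached the adjusted threshold. Rab20 was among the higher calls of that fit, with a difference of 1.42 (limma unadjusted p = 0.0201, adjusted p = 0.319), but its values are dim.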
